A study of Mus musculus with 15 samples.

Results

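The genes described here encode the proteins of the cytosolic ribosome, as measured in whole tarsal joints of mice with collagen-induced arthritis. They were chosen by name, as the genes whose array symbol is Rpl or Rps with a number and at most the letters a, x or l, together with Rplp0, Rplp1, Rplp2, Rpsa and Fau. On the array, 60 of the 19938 genes that have a probe set naming that gene alone met this rule, 37 of the large subunit and 23 of the small subunit, on 217 probe sets. All mice were male DBA/1JBom, and the arthritic animals had been injected intradermally with chicken collagen type II in complete Freund's adjuvant and boosted with the same collagen in incomplete adjuvant. The arthritic groups were day 0 to 3 (2 usable joints), week 1 to 2 (3 joints) and week 3 to 4 (3 joints) after onset, all at a joint score of 3, and decline (3 joints), in which that score had been held for weeks and had then fallen. The 3 control joints came from mice labelled as not induced, and the passage of the methods on these arrays calls them non-immunised, while another passage gives the control group of the arthritis model adjuvant without collagen. No source used here gives the age of the mice. Each joint came from 1 animal and was hybridised to its own Affymetrix Mouse Gene 1.0 ST array. Skin and visible muscle had been removed, and all other soft tissue and bone stayed in the sample. Values are log2 signals, so a difference of 1 is a 2-fold change. In such whole-tissue RNA, more cells of one type and more RNA per cell cannot be told apart. A further joint of day 0 to 3, animal 57, had been marked by the submitters as failing quality control and was left out unless it is named.

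A ribosome consists of a small subunit that reads the messenger RNA and a large subunit that joins the amino acids. Each mature ribosome holds the ribosomal proteins in near equal numbers, around a core of ribosomal RNA. In mammals the messenger RNAs of these proteins usually begin with a C followed by a run of pyrimidines, the 5′ terminal oligopyrimidine tract, through which mTOR and the RNA-binding protein Larp1 control their translation. An array measures the messenger RNA and gives no reading of that translational step. The large subunit carries a flexible stalk of Rplp0, Rplp1 and Rplp2, which recruits the elongation factors. Ribosomal protein genes are among the most strongly expressed genes of most tissues, and their many processed pseudogenes make single probe sets hard to assign to one locus.

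The bases around the start sites of 9 members whose levels are described below are shown because a pyrimidine tract at the start is the feature for which these transcripts are known. They are taken from RefSeq (GRCm38.p6), where 48 of the 60 members had an entry, and run from 25 bases before the first listed start to the 25th base from it, on the gene's own strand. Capitals mark the longest run of C and T that begins with C within 20 bases of the listed start, where it has at least 6 letters.
Rplp0 (chr5:115559442-115559491, plus strand): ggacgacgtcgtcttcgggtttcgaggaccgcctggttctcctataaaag
Rplp2 (chr7:141447626-141447675, plus strand): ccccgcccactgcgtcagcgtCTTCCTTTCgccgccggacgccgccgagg
Rpl19 (chr11:98026685-98026734, plus strand): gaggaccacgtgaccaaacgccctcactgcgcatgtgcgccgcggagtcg
Rpl27 (chr11:101442220-101442269, plus strand): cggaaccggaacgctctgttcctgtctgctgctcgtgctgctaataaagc
Rpl41 (chr10:128549144-128549193, minus strand): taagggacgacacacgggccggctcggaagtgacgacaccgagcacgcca
Rps9 (chr7:3704016-3704065, plus strand): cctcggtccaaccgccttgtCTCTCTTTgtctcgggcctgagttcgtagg
Rps27l (chr9:66946061-66946110, plus strand): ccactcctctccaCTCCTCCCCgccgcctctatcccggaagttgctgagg
Rps19 (chr7:24884567-24884616, plus strand): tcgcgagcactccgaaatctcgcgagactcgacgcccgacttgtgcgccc
Rpl3l (chr17:24727801-24727850, plus strand): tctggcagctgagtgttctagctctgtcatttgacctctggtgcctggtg
Such a run lay within 20 bases of the listed start in 28 of the 48 members (58.3%) and in 30.8% of the 27025 genes in the table, counted on the gene's own strand only. In the stretches shown, Rplp2, Rps9 and Rps27l had one and the other 6 did not. The listed start is the outermost one in the annotation, and where transcription began in these joints was not measured.

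The family's signal, which depends on the probes as well as on the RNA, was high on every array. The median member lay at the 99.1st to 99.4th percentile of the 19938 genes in the controls and at the 99.3rd to 99.5th in the arthritic joints. The mean log2 value of the 60 genes was 9.80 to 10.60 on the 3 control arrays. It was 10.99 to 11.04 at day 0 to 3, 10.91 to 10.995 at week 1 to 2, 10.86 to 11.11 at week 3 to 4 and 10.29 to 11.06 in decline. The groups of the first 3 phases did not overlap the controls, and decline did. The spread of signal on an array differed in the same way. The SD over all genes outside the family was 1.20 to 1.44 in the controls, 1.46 to 1.63 in the 8 joints of the first 3 phases and 1.26 to 1.57 in decline. Control 2 was the narrowest of the 14 arrays, followed by animal 10 of decline, and 38 of the 60 members had their lowest value on control 2. The left-out array of animal 57 was narrower still, with an SD of 1.06 and a family mean of 9.12.

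**Figure D1:**
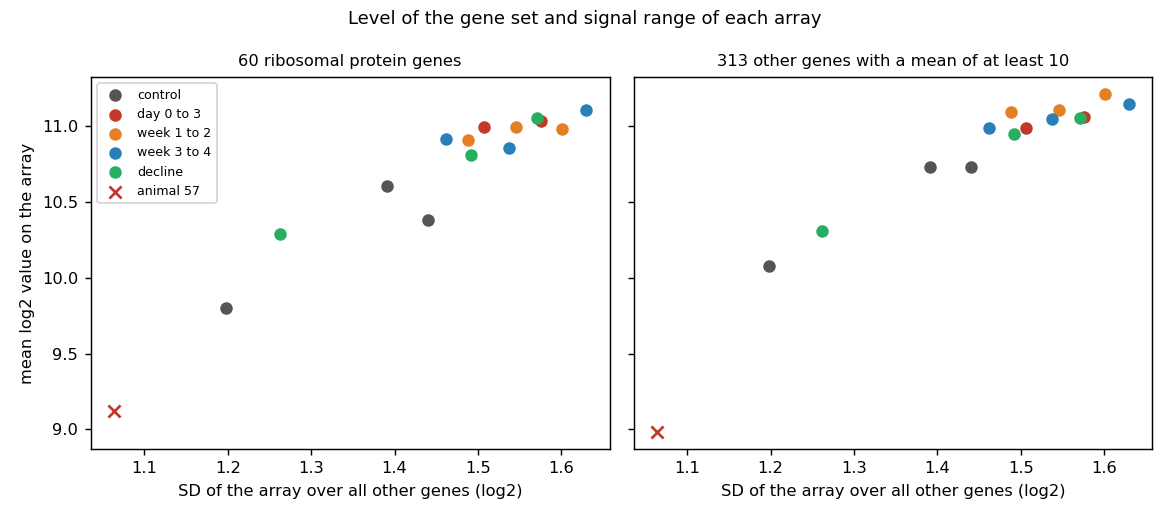
Mean log2 value (y axis) against the SD over all genes outside the family (x axis) of each array, for the 60 ribosomal protein genes (left) and for 313 other genes with a mean of at least 10 (right), coloured by group, with the left-out animal 57 as a cross. On both sides the narrowest arrays, animal 57, control 2 and animal 10, are the lowest, and the arrays of the first 3 phases lie together at the upper right.

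Against control, at an adjusted p under 0.05 over all 19938 genes (limma, with Benjamini-Hochberg adjustment), 12 members were higher and 3 were lower at day 0 to 3. Of all genes, 4.46% were higher and 3.36% lower. The 12 were Rpl5, Rpl7, Rpl8, Rpl9, Rpl19, Rpl21, Rpl24, Rpl27, Rpl30, Rpl41, Rplp0 and Rps27l, so that 11 belong to the large subunit and 1, Rps27l, to the small. These calls rest on the probe set of highest mean of each gene, and other probe sets of both subunits were called too, as described below. The 3 lower members were Rpl3l, Rpl36 and Rps19. At week 1 to 2 all 15 passed again in the same direction, and Rpl23, Rpl37a, Rplp2 and Rps9 were also higher, against 5.41% of all genes higher and 4.64% lower. At week 3 to 4 the 6 higher members were Rpl9, Rpl19, Rpl21, Rpl30, Rpl41 and Rps27l, with none lower, against 0.958% and 0.592% of all genes. In decline no member passed, nor did any of the 19938 genes (0.0%), and 17 members had an unadjusted p under 0.05, against 12.0% of all genes.

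The median log2 change of the 60 members was 0.65 at day 0 to 3, 0.57 at week 1 to 2, 0.66 at week 3 to 4 and 0.44 in decline. The median of all genes was -0.12, -0.13, -0.09 and -0.05. In the same order, 54, 53, 54 and 56 members lay above 0, against 38.9%, 37.2%, 40.9% and 42.1% of all genes. The 313 bright genes outside the family, those with a mean of at least 10, had medians of 0.64, 0.63, 0.54 and 0.23. These were near the members' in the first 2 phases and below them in the last 2, a difference that was not tested. The 43 members with such a mean had medians of 0.65, 0.55, 0.62 and 0.41. That mean is over 14 arrays, 11 of them arthritic, so genes high in arthritis pass the limit more easily. At day 0 to 3, 26.2% of the 313 bright genes were higher and 8.63% lower, against 12 and 3 of the 60 members. At week 1 to 2 the bright genes gave 34.8% higher and 4.79% lower, against 16 and 3 members, and at week 3 to 4 they gave 7.99% and 2.56%. Both joints of day 0 to 3 lay above all 3 controls for 36 members and below them for 4, against 18.4% and 27.8% of all genes. The counts were 31 and 4 at week 1 to 2 (13.6% and 23.3% of all genes), 34 and 4 at week 3 to 4 (10.5% and 15.4%), and 9 and 0 in decline (3.8% and 6.2%). Of the 313 bright genes outside the family, 182 lay above and 50 below the controls at day 0 to 3. Their counts were 175 and 29 at week 1 to 2, 147 and 21 at week 3 to 4, and 30 and 15 in decline.

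**Figure D2:**
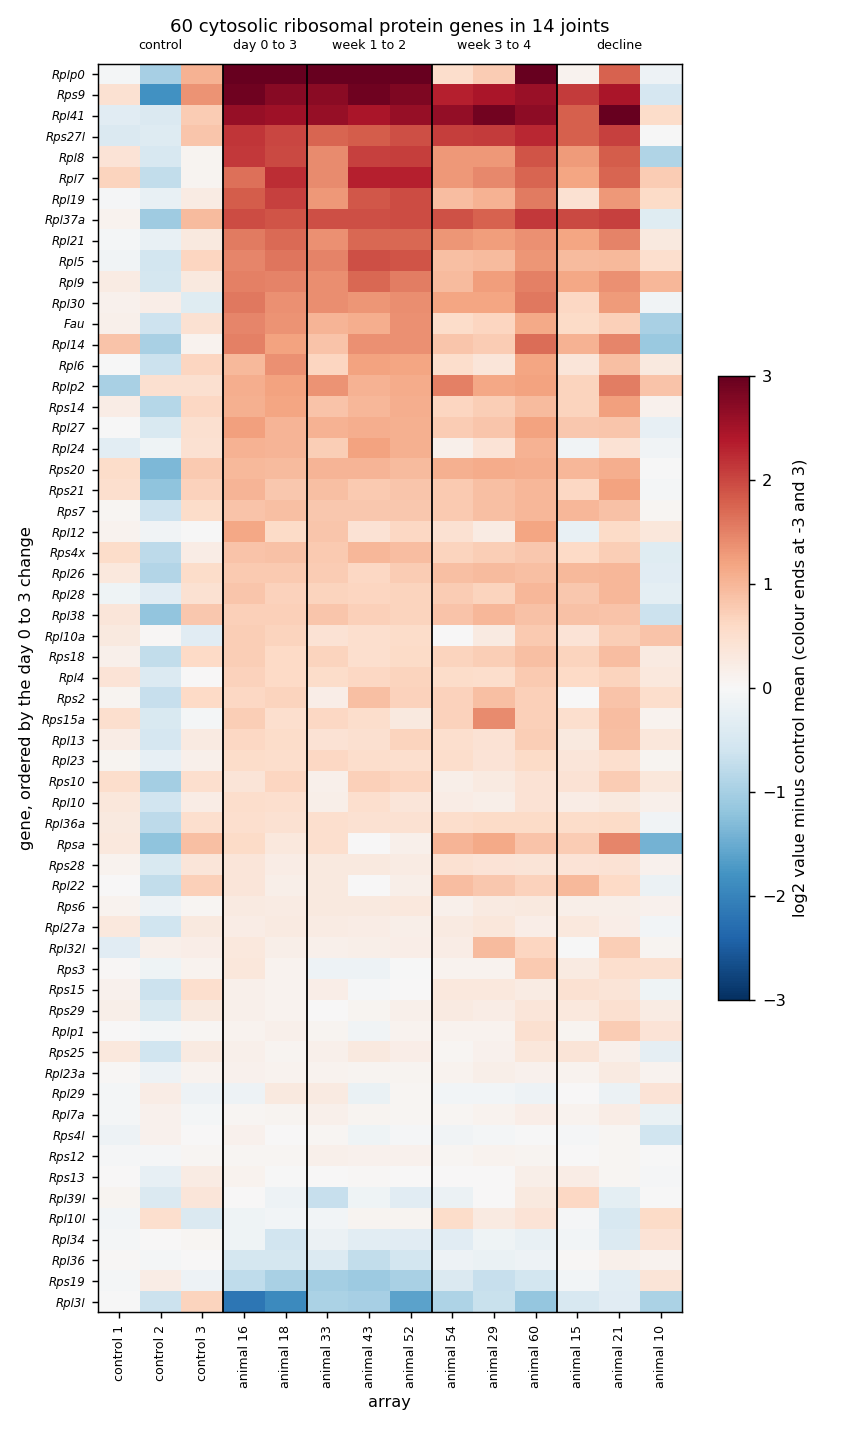
Log2 value minus the control mean, by colour from -3 (blue) to 3 (red), of the 60 genes (rows, ordered by the day 0 to 3 change) on the 14 arrays (columns, by group). Most rows are red in the first 3 phases, Rpl3l, Rps19 and Rpl36 at the foot are blue there, and control 2 and animal 10 are paler or bluer than the other arrays of their groups.

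The size of the family's shift depended on how the arrays were put on one scale. With every array given one median and one SD, the median change of the members was 0.09, 0.02, 0.07 and 0.24 in the 4 phases, and 34, 30 and 35 of the 60 lay above 0 in the first 3. With the array's SD as a covariate it was 0.18, 0.14, 0.16 and 0.20, and a second quantile normalisation gave 0.24, 0.22, 0.33 and 0.25. Without control 2 it was 0.32, 0.27, 0.39 and 0.12. With animal 57 added to day 0 to 3 it was 0.05 in that phase, and 0 members were higher and 2 lower. Some calls of single members held under each of 4 other scalings of the same 14 arrays. At day 0 to 3 these were 5 of the 12 higher calls (Rpl5, Rpl9, Rpl19, Rpl21 and Rplp0) and 1 of the 3 lower (Rpl3l). At week 1 to 2 they were 5 of the 16 higher calls (Rpl5, Rpl7, Rpl9, Rpl19 and Rpl21) and all 3 lower (Rpl3l, Rps19 and Rpl36). The call of Rpl36 had an adjusted p of 0.0495 (limma) with the array SD as a covariate. The calls also moved with single arrays. At day 0 to 3, 2 members were called without animal 18, 1 without animal 16, 9 without control 2 and 24 without animal 10, and Rpl19 alone was called whichever of the 14 arrays was left out. At week 1 to 2 the count was 9 without animal 43 or without animal 52, 12 without control 2 and 27 without animal 10. Rpl5, Rpl7, Rpl9, Rpl19, Rpl21, Rpl30, Rpl41 and Rplp0 were higher and Rps19 lower whichever array was left out. Of the 6 calls at week 3 to 4, none held under all 4 scalings, and none held whichever array was left out.

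**Figure D3:**
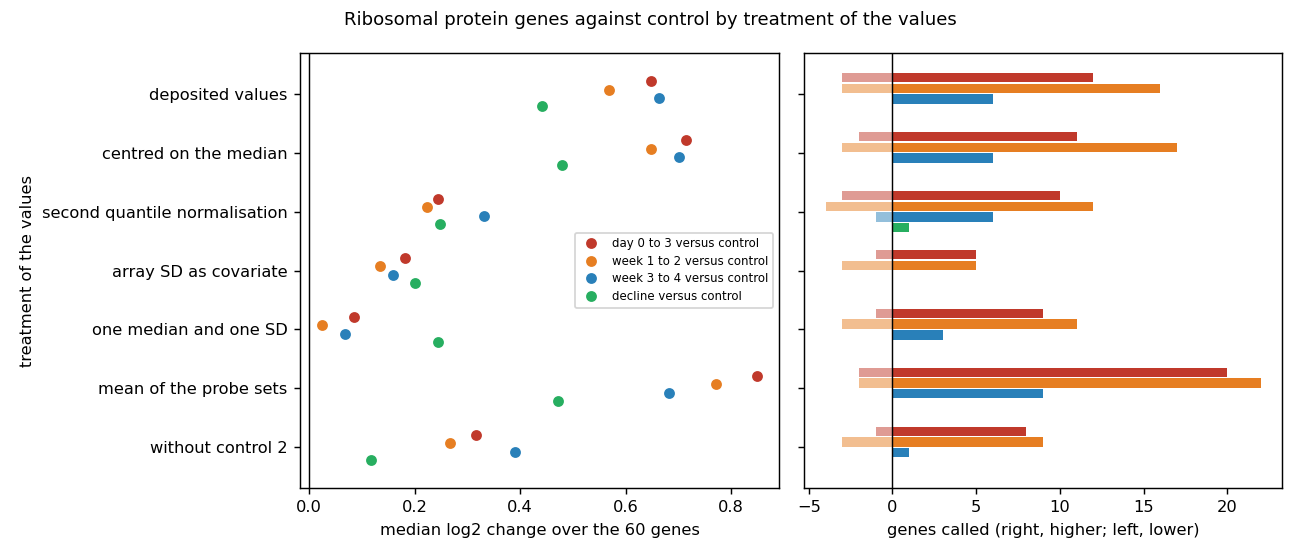
Median log2 change of the 60 genes against control (left) and number of genes called higher (bars to the right) or lower (paler bars to the left) at an adjusted p under 0.05 (right), for 4 phases and 7 treatments of the values. The medians of the first 3 phases lie between 0.57 and 0.66 with the deposited values and between 0.02 and 0.09 with one median and one SD for every array.

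Of the stalk genes, Rplp0, the protein that anchors the stalk to ribosomal RNA, had the largest change of the family on the probe set with the higher mean over the 14 arrays (10436694). In the controls alone that probe set was the dimmer of the pair, at a mean of 8.12 against 8.87, so the arthritic joints decided that it stood for the gene. It read 8.06, 7.13 and 9.17 in the controls, 11.98 and 11.75 at day 0 to 3, 11.11, 11.62 and 11.67 at week 1 to 2, 8.64, 8.89 and 11.11 at week 3 to 4, and 8.23, 9.89 and 7.96 in decline. The first 2 phases lay far above the controls, while week 3 to 4 was split between animal 60, at the level of the earlier phases, and the other 2 joints, at that of the controls. The log2 change was 3.75 ± 0.72 (SE; adjusted p = 0.0094, limma) at day 0 to 3 and 3.35 ± 0.65 (adjusted p = 0.0086) at week 1 to 2. It was 1.43 ± 0.65 at week 3 to 4 and 0.57 ± 0.65 in decline, with adjusted p of 0.2 and 0.75. With the array SD as a covariate the first change was 2.48 (adjusted p = 0.044) and the second 2.06 (adjusted p = 0.071). The other probe set that names Rplp0 alone (10524718) changed by -0.08 at day 0 to 3 (adjusted p = 0.86). Which of the probe sets follows the functional transcript was not tested.

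Of the other stalk proteins, Rplp1 passed in no comparison and Rplp2 was higher at week 1 to 2. Rplp1 stood at 11.91, 11.84 and 11.97 in the controls, 12.00 and 12.07 at day 0 to 3 and 11.99, 11.79 and 12.00 at week 1 to 2. It changed by 0.13 at day 0 to 3 (adjusted p = 0.7, limma). Rplp2 stood at 6.42, 7.87 and 7.86 in the controls, 8.47 and 8.58 at day 0 to 3, and 8.72, 8.42 and 8.5 at week 1 to 2. Control 1 was far below the other controls, and all 11 arthritic joints, from 8.05 to 8.91, were above all 3. The Rplp2 change of 1.16 ± 0.33 at week 1 to 2 passed (adjusted p = 0.042, limma) and that of 1.14 ± 0.37 at day 0 to 3 did not (adjusted p = 0.073). The week 1 to 2 change was 1.32 with the array SD as a covariate and no longer passed (adjusted p = 0.1).

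Rpl41, a very short basic peptide of the large subunit, read 9.73, 9.65 and 10.85 in the controls. It read 12.70 and 12.63 at day 0 to 3, 12.70, 12.53 and 12.69 at week 1 to 2, 12.71, 12.98 and 12.76 at week 3 to 4, and 11.88, 13.06 and 10.63 in decline. The 8 joints of the first 3 phases lay close together, from 12.53 to 12.98, and above every control, and animal 10 of decline fell among the controls. The change was 2.59 ± 0.51, 2.57 ± 0.45 and 2.74 ± 0.45 in the first 3 phases, or 6.0-, 5.92- and 6.68-fold, with adjusted p of 0.0099, 0.0055 and 0.02. With the array SD as a covariate it was 1.81 and 1.78 in the first 2, no longer past the threshold (adjusted p = 0.058 and 0.052).

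Rps9, a protein at the mRNA entry of the small subunit, had the largest change after Rplp0 and the widest controls of the family, at 10.90, 8.63 and 11.78. It read 13.36 and 13.17 at day 0 to 3, 13.14, 13.36 and 13.23 at week 1 to 2 and 12.76, 12.89 and 13.03 at week 3 to 4. In decline it read 12.53, 12.89 and 9.93. All 8 joints of the first 3 phases were above every control. The change of 2.81 ± 0.73 at week 1 to 2 passed (adjusted p = 0.031, limma), that of 2.83 ± 0.82 at day 0 to 3 did not (adjusted p = 0.0505), and both were reduced with the array SD as a covariate, to 1.09 and 1.13 (adjusted p = 0.25 and 0.27).

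Rpl19, a large subunit protein that takes part in a bridge between the subunits, rose most steadily. It read 9.78, 9.60 and 10.07 in the controls, 11.63 and 11.86 at day 0 to 3, 11.12, 11.68 and 11.78 at week 1 to 2, 10.75, 10.85 and 11.38 at week 3 to 4, and 10.27, 11.11 and 10.40 in decline. Every arthritic joint lay above every control, and the levels stepped down from the first to the last phase with overlap between neighbouring phases. The change was 1.93 ± 0.28 at day 0 to 3 (3.80-fold, adjusted p = 0.002), 1.71 ± 0.25 at week 1 to 2 (3.27-fold, adjusted p = 0.0028) and 1.17 ± 0.25 at week 3 to 4 (adjusted p = 0.042). All 7 of its probe sets were called higher at day 0 to 3, between 1.80 and 2.55. With one median and one SD for every array the change at day 0 to 3 was 1.42 (adjusted p = 0.0051).

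Rpl5, which carries the 5S ribosomal RNA into the large subunit and can bind the p53 regulator Mdm2, changed by 1.53 ± 0.29 at day 0 to 3 and 1.77 ± 0.26 at week 1 to 2 (adjusted p = 0.0085 and 0.0026). Its controls were 10.07, 9.62 and 10.80, and the 5 joints of the first 2 phases ran from 11.62 to 12.10 without overlap. Rpl9 changed by 1.5 ± 0.25 and 1.55 ± 0.22 (adjusted p = 0.0039 and 0.0024) and Rpl21 by 1.62 ± 0.28 and 1.6 ± 0.25 (adjusted p = 0.005 and 0.0033), both large subunit proteins. In week 3 to 4 Rpl9 was still higher by 1.23 and Rpl21 by 1.32 (adjusted p = 0.025 and 0.029). These were 0.82 and 0.83 with the array SD as a covariate and neither passed, nor did Rpl9 without animal 29 or animal 60. The remaining higher members of day 0 to 3 were Rpl7 (1.94), Rpl8 (2.04), Rpl24 (1.02), Rpl27 (1.12) and Rpl30 (1.48), with adjusted p from 0.013 to 0.046. In the same order they were 1.22, 0.80, 0.72, 0.52 and 1.07 with the array SD as a covariate, none past the threshold, with adjusted p from 0.057 to 0.24. Rpl8 lies near the peptidyl transferase centre, and a mutation of Rpl24 is known in the mouse for its belly spot and kinked tail. Rpl30 read 5.93, 6.0 and 5.44 in the controls and 7.38 and 7.17 at day 0 to 3. Rpl37a, higher at week 1 to 2 only, changed by 1.94 ± 0.55 there (adjusted p = 0.042) and by 1.92 ± 0.62 at day 0 to 3 (adjusted p = 0.072), with controls spread from 9.76 to 11.79. The week 1 to 2 change was 0.67 (adjusted p = 0.37) with the array SD as a covariate. Rpl23 was higher at week 1 to 2 by 0.55 ± 0.15 (adjusted p = 0.036), and its change was -0.27 with one median and one SD for every array.

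**Figure D4:**
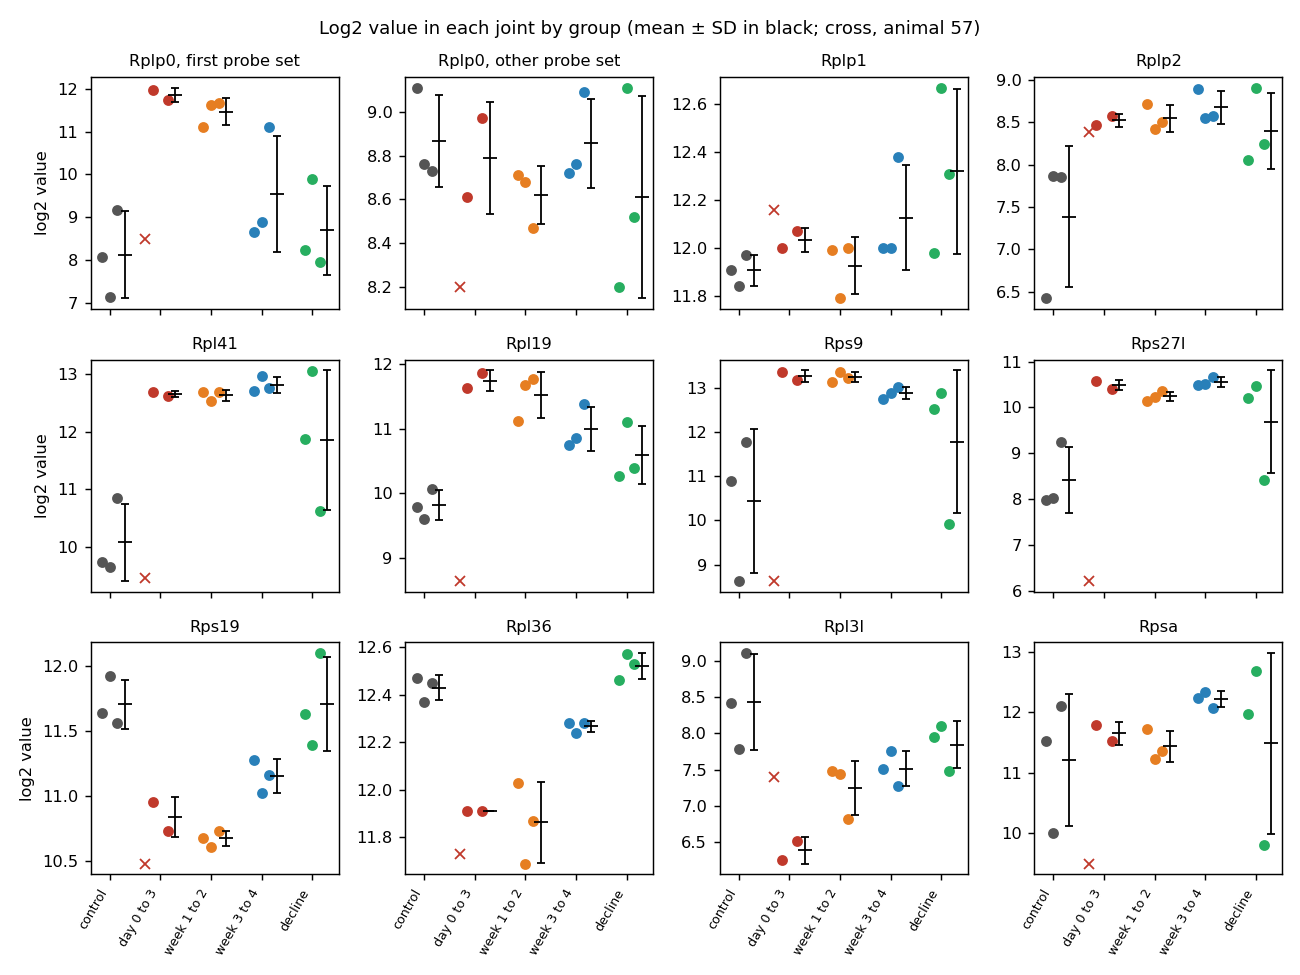
Log2 value in each joint (y axis, own scale in each panel) by group (x axis) for 11 members, with both probe sets of Rplp0, the mean ± SD of each group in black and the left-out animal 57 as a cross. Rplp0 on its first probe set, Rpl41, Rpl19, Rps9 and Rps27l lie above the controls in the first 2 phases, Rps19, Rpl36 and Rpl3l below them, and Rplp1 and the other probe set of Rplp0 overlap or differ by little.

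Of the 3 members that fell, Rps19 is a small subunit protein whose loss of 1 copy in humans is known from Diamond-Blackfan anaemia. It read 11.64, 11.92 and 11.56 in the controls, 10.95 and 10.73 at day 0 to 3, 10.68, 10.61 and 10.73 at week 1 to 2, 11.28, 11.02 and 11.16 at week 3 to 4, and 11.63, 11.39 and 12.10 in decline. All joints of the first 3 phases lay below every control, and decline overlapped the controls. The change was -0.87 ± 0.20 (adjusted p = 0.021) and -1.04 ± 0.18 (adjusted p = 0.0053) in the first 2 phases, and -0.56 ± 0.18 at week 3 to 4 (adjusted p = 0.11). With one median and one SD it was -1.58 and -1.73 (adjusted p = 0.06 and 0.025). With animal 57 in the fit Rps19 was still lower in both early phases, by -0.99 at day 0 to 3 (adjusted p = 0.031) and -1.04 at week 1 to 2 (adjusted p = 0.039).

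Rpl36, a large subunit protein, read 12.47, 12.37 and 12.45 in the controls and 11.91 and 11.91 at day 0 to 3. It read 12.03, 11.69 and 11.87 at week 1 to 2, 12.28, 12.24 and 12.28 at week 3 to 4, and 12.46, 12.57 and 12.53 in decline. The fall was small but wide of the spread, with no overlap in the first 3 phases. The change was -0.52 ± 0.14 (adjusted p = 0.043) and -0.57 ± 0.13 (adjusted p = 0.017) in the first 2 phases. These values are from the probe set of highest mean. All 9 of its probe sets ran from -0.70 to 0.08 at day 0 to 3, with 2 called lower. At week 1 to 2 they ran from -0.90 to 0.03, with 4 called lower. On the probe set of highest mean, centring the arrays on their median gave -0.45 at day 0 to 3, past the threshold no longer (adjusted p = 0.063).

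Rpl3l, the form of Rpl3 that in the mouse is made mainly in skeletal and heart muscle, fell most. It read 8.42, 7.78 and 9.11 in the controls, 6.26 and 6.52 at day 0 to 3, 7.48, 7.44 and 6.82 at week 1 to 2, 7.51, 7.76 and 7.28 at week 3 to 4 and 7.95, 8.10 and 7.48 in decline. Day 0 to 3 was lowest, the next 2 phases lay between it and the controls, and decline overlapped the controls. The change was -2.04 ± 0.33 (4.12-fold lower, adjusted p = 0.0037) at day 0 to 3 and -1.19 ± 0.30 (adjusted p = 0.026) at week 1 to 2. With animal 57 in the fit it was -1.71 (adjusted p = 0.037) at day 0 to 3, and the week 1 to 2 change no longer passed (adjusted p = 0.12). The 12 skeletal muscle markers, myosin heavy chains, creatine kinase and the like, moved with it. Of these, 11 were lower at day 0 to 3 and 4 at week 1 to 2, against 3.36% and 4.64% of all genes. Their mean level was 10.99 to 11.63 in the controls, 8.88 to 8.96 at day 0 to 3 and 9.77 to 10.64 at week 1 to 2. It was 10.06 to 10.39 at week 3 to 4 and 10.17 to 11.02 in decline. Myh1, a fast myosin, changed by -3.12 and Ckm, muscle creatine kinase, by -2.34 at day 0 to 3. The part of muscle content in the Rpl3l values was not tested.

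The paralogues, second copies with a restricted or induced expression, went separate ways. Rps27l, a copy of Rps27 known as a p53 target, read 7.98, 8.02 and 9.24 in the controls, 10.57 and 10.41 at day 0 to 3, 10.15, 10.23 and 10.35 at week 1 to 2, 10.48, 10.51 and 10.67 at week 3 to 4, and 10.21, 10.46 and 8.41 in decline. All 8 joints of the first 3 phases were above every control, and animal 10 of decline was the lowest arthritic joint. It changed by 2.07 ± 0.49, 1.83 ± 0.44 and 2.14 ± 0.44 (adjusted p = 0.023, 0.021 and 0.035). With the array SD as a covariate it was 1.27 and 1.01 in the first 2 phases (adjusted p = 0.13 and 0.2). Rpl10l and Rpl39l, known from the testis, were dim, with control means of 5.28 and 5.16, and Rps4l, at 6.60, is a further copy of Rps4. Their changes against control in the 4 phases were between -0.39 and 0.41, with no adjusted p under 0.32.

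Rpsa, a small subunit protein also known as the laminin receptor precursor, read 11.52, 10.00 and 12.11 in the controls, 11.79 and 11.52 at day 0 to 3, 12.24, 12.34 and 12.07 at week 3 to 4 and 11.97, 12.68 and 9.80 in decline. Control 2 and animal 10 were the low joints, and no phase stood clear of the controls. Its changes were 0.45, 0.22, 1.00 and 0.27, with adjusted p of at least 0.31. Fau, a ubiquitin-like protein fused to the small subunit protein Rps30, read 9.78, 9.01 and 10.09 in the controls and 11.09 and 10.97 at day 0 to 3. All 8 joints of the first 3 phases, from 10.18 to 11.09, were above the controls. The Fau change of 1.40 ± 0.42 missed the threshold at day 0 to 3 (adjusted p = 0.058), and its other probe set was called higher there, at 1.65.

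Grouped by role, the lists below held from 0 to 3 members called higher in an early phase, and Rps19 was the only one of them called lower. Of all genes, 4.46% were higher and 3.36% lower at day 0 to 3, and 5.41% and 4.64% at week 1 to 2. No list was tested as a set. Of 6 measured proteins that can bind Mdm2, a regulator of p53, Rpl5 and Rps27l were higher at day 0 to 3 and Rpl23 too at week 1 to 2, with a list median of 0.83 at day 0 to 3. Of 8 measured genes mutated in human Diamond-Blackfan anaemia, Rpl5 and Rpl27 were higher and Rps19 lower in both early phases, with a median of 0.65. Of 6 measured proteins around the exit tunnel, Rpl19 was higher, with a median of 0.69. Of 6 around the mRNA channel none was called at day 0 to 3 and Rps9 was higher at week 1 to 2, with a median of 0.47. The median of all 60 was 0.65. By subunit, 11 of 37 large and 1 of 23 small subunit members were higher at day 0 to 3, and 2 and 1 were lower. The medians were 0.73 and 0.52. These counts and medians rest on the probe set of highest mean. Other probe sets were called higher there in both subunits, among them 5 of 7 for Rps18 and 6 of 9 for Rpl13. The difference between the subunits was not tested.

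The 41 members called in no comparison changed by -0.34 to 1.40 at day 0 to 3, with a median of 0.47 and 38 above 0, and their lowest adjusted p was 0.055. At week 1 to 2 they ran from -0.39 to 1.19, with 37 above 0. Among them, 12 had an unadjusted p under 0.05 at day 0 to 3 and 13 at week 1 to 2. Of all genes 26.1% and 29.9% had one, so these counts lie near the background. All these values are from the probe set of highest mean. Other probe sets of some of the 41 were called higher at day 0 to 3. These included 6 of 9 for Rpl13, 5 of 7 for Rps18 and 4 of 6 for Rps25. Of the 40 members with more than 1 probe set, 17 had none called in that phase. Rps12, a small subunit protein with 14 probe sets, stood on the brightest at 13.23, 13.23 and 13.32 in the controls and between 13.24 and 13.42 in all 11 arthritic joints. Over its 14 probe sets the change at day 0 to 3 ran from 0.01 to 1.02, with 1 called higher. At week 1 to 2, 2 of them were called higher.

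A gene's probe sets often disagreed in size. Of the 217 probe sets that name 1 member, 72 were higher and 4 lower at day 0 to 3, against 4.93% and 3.47% of all probe sets that name 1 gene, and 12 repeated the values of another probe set of the same gene within 0.01. Counted by gene, 25 members had at least 1 probe set called higher at day 0 to 3 and 31 at week 1 to 2, against 12 and 16 when the brightest probe set stood for the gene. Of the 40 members with more than 1 probe set, 15 had changes at least 1 apart at day 0 to 3, and 2, Rplp0 and Rpl36, had both signs. In 6 members every distinct probe set was called higher. The median gap between the highest and lowest was 0.74. Rps21 changed by 0.91 on its brightest probe set and by 3.48 on the other, neither called (adjusted p = 0.22 and 0.076). For Rps2 the brightest gave 0.65 and a dimmer one 2.66 (adjusted p = 0.0037), and for Rps10 they gave 0.52 and 2.13 (adjusted p = 0.013). For Rps15 the brightest gave 0.14, with controls of 12.88, 12.10 and 13.25, and the dimmest 2.02 (adjusted p = 0.019), with controls of 9.70, 8.61 and 10.12. Rpl27a had 8 probe sets between 0.25 and 0.75 and a ninth at 2.28. Rps14, at 1.13 and 2.40, and Rpsa, at 0.45 and up to 2.01, spread in the same way. In Rpl5 4 probe sets ran from 0.97 to 1.53 and were called, and the dimmest gave 0.01. In Rpl21 8 of 9 were called, from 1.22 to 2.17, and 1 gave 0.23.

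**Figure D5:**
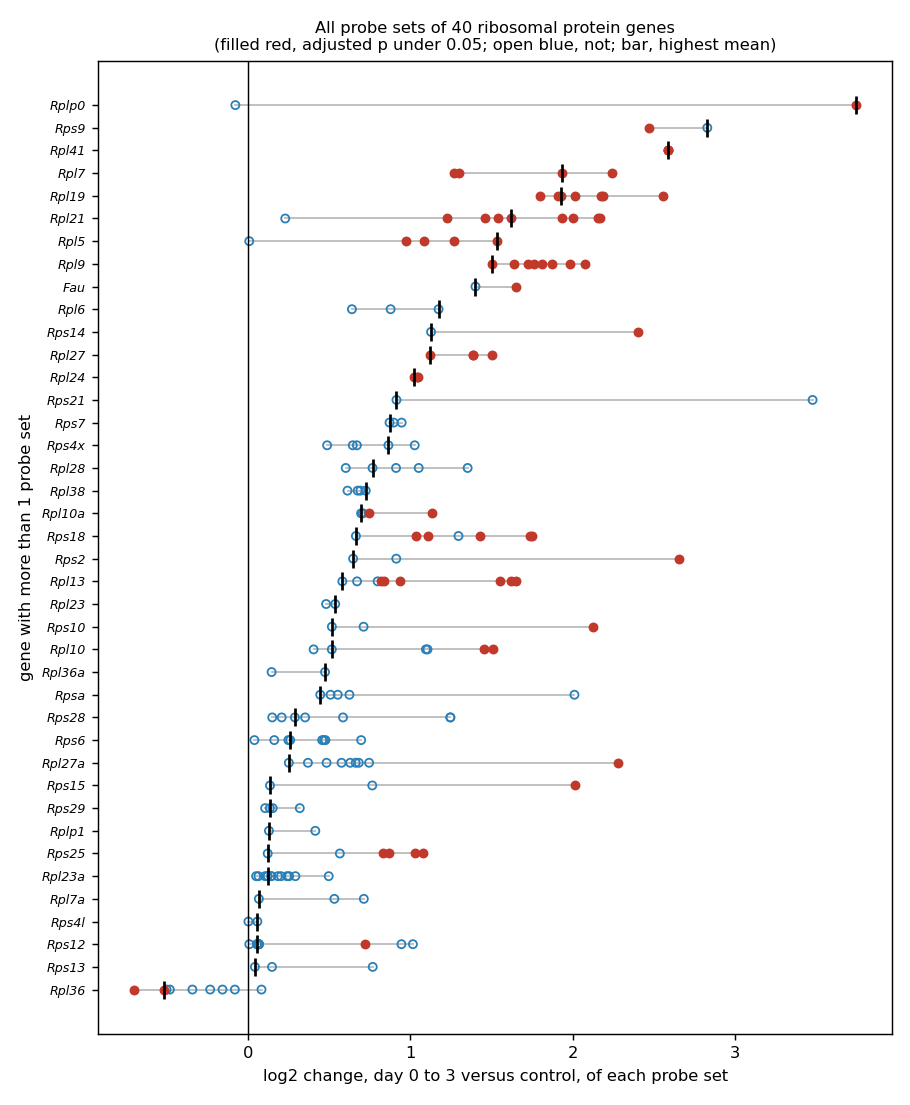
Log2 change at day 0 to 3 against control (x axis) of every probe set of the 40 members that have more than 1 (y axis), filled red where the adjusted p is under 0.05 and open blue where it is not, with a black bar on the probe set of highest mean. Rpl19, Rpl9 and Rpl41 are red throughout, but the 3 probe sets of Rpl41 carry the same values and count as 1. Rplp0 runs from -0.08 to 3.75, and in Rps2, Rps10, Rps15 and Rpl27a the largest change is on a probe set other than the brightest.

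A further 235 probe sets name a family gene together with another gene, often a pseudogene or a small nucleolar RNA, and were kept out of the comparisons. Through these alone 17 more family genes were reached, which makes 77 in all. Their values are open to more than one source, and no test was made on them. At day 0 to 3, 223 of the 235 lay above the control mean, with a median difference of 1.29, and the median was 1.25, 0.88 and 0.58 in the later phases. Of the 1386 other probe sets that name several genes, 1.15% had all 11 arthritic joints above all 3 controls, as all 3 of Rps16 did. Those of Rps16, a small subunit protein, had differences of 1.79 to 1.97, and Rps26 had 3 probe sets from 2.51 to 2.99. Rps24 had 3 from 2.28 to 3.23, and Rpl15 had 8 from 1.57 to 3.45. Rpl37 lay at -0.17 and -0.15. In Rpl13a the probe sets naming it with Zfp526 differed by 1.43 and 0.87, and those naming it with the small nucleolar RNAs Snord34 and Snord32a by -0.85 and -0.77.

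Between phases, no member passed for week 3 to 4 against week 1 to 2, where 0.00502% of all genes were called, nor for decline against week 3 to 4 (0.0%), where 5 and 2 members had an unadjusted p under 0.05, against 4.98% and 6.13% of all genes. Against the first 2 phases pooled, decline was higher for Rps19 (0.95 ± 0.16, adjusted p = 0.0097), Rpl36 (0.63 ± 0.11, adjusted p = 0.011) and Rpl3l (1.03 ± 0.27, adjusted p = 0.044). It was lower for Rplp0 (-2.98 ± 0.58, adjusted p = 0.015), Rpl19 (-1.04 ± 0.23, adjusted p = 0.023) and Rpl24 (-0.93 ± 0.23, adjusted p = 0.036). Of all genes 2.67% were higher and 2.08% lower, and of the 313 other bright genes 6.39% and 8.31%. The 3 declining joints lay below all 5 early ones for 12 members and above them for 4, and these 6 were among them. The same held for 7.34% and 9.07% of all genes, and for 103 and 15 of the 313 other bright genes. In each of the 6 the sign was opposite to that of the early phases against control, with which this comparison shares the early joints. Rplp0 was called under all 4 other scalings (-2.33 to -3.01), and Rps19 whichever of the 14 arrays was left out. The 5 early arrays share one letter code in their names and the 3 declining arrays another, and no source used here says what the code stands for. With it as a term of the fit, which only week 3 to 4 informs since it holds both codes, none of the 6 was called (adjusted p from 0.56 to 0.97). Their changes then ran from -4.34 for Rplp0 to 1.14 for Rps19 with the same signs, so the code and the phase cannot be told apart here. The median over the 60 members was -0.15 in this comparison, against 0.04 for all genes.

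The declining joints were not uniform. Animals 15 and 21 had family means close to the earlier phases, and animal 10 had the 10.29. Without animal 10, 6 members were higher in decline than in control: Rpl41 (2.39), Rpl37a (2.01), Rps27l (1.92), Rpl8 (1.55), Rpl21 (1.34) and Rpl9 (1.27), with adjusted p from 0.015 to 0.041. They were named after their values were seen. The same removal gave 24 called members at day 0 to 3, 27 at week 1 to 2 and 18 at week 3 to 4, since the spread of all groups is estimated together. No share of all genes is given beside these counts either.

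Some genes that build and serve the ribosome were higher too. Of 40 ribosome biogenesis genes, 6 were higher and none lower at day 0 to 3, with a median of 0.35, where 4.46% of all genes were higher and 3.36% lower. Npm1, the nucleolar chaperone nucleophosmin, changed by 2.14, Nhp2, a protein of the box H/ACA particles that guide pseudouridylation, by 1.37 and Ebna1bp2, a nucleolar assembly factor, by 1.19. Of 18 measured translation genes whose messenger RNAs are known or held to carry the same tract, 5 were higher at day 0 to 3 and 7 at week 1 to 2 (4.46% and 5.41% of all genes), with none lower and a median of 0.78 at day 0 to 3. The mean level of the 18 was 10.15 to 10.20 at day 0 to 3. Of the 313 other bright genes 26.2% and 34.8% were higher in these 2 phases, with a median of 0.64 at day 0 to 3. Eef1b2, an exchange factor of elongation factor 1, changed by 3.08, Eif3m by 2.58 and Eif3h by 1.86, the last 2 being subunits of initiation factor 3. Of 15 measured regulators of these genes, among them Mtor, Larp1, Myc, Trp53 and Mdm2, none was higher at day 0 to 3, and Larp4 (-1.33), Eif4ebp2 (-0.77), a repressor of cap-dependent initiation, and Akt1s1 (-0.66), an mTORC1 inhibitor, were lower, against 3.36% of all genes. The 77 mitochondrial ribosomal protein genes, which serve the separate ribosome of that organelle, had a median of -0.01 at day 0 to 3. There 3 were higher and none lower, near the 4.46% of all genes that were higher. At week 1 to 2 the median was -0.02, with 7 higher and 4 lower, against 5.41% and 4.64% of all genes. The mean level of the 77 was 7.36 to 7.71 in the controls and 7.65 to 7.81 at day 0 to 3. Rps3a1, a small subunit protein whose symbol fell outside the naming rule, was higher by 1.94, 2.35 and 1.96 in the first 3 phases (adjusted p = 0.0048, 0.0019 and 0.015). The changes of these genes outside the family are given on the deposited values only, without the other scalings.

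Bone and cartilage markers were present as the tissue label has it, with mean levels of 8.34 to 8.88 for osteoblast and osteocyte genes and 7.89 to 8.16 for cartilage genes in the controls. Cell type markers other than muscle moved with the phases as well. At day 0 to 3, 6 of 11 macrophage, 4 of 8 osteoclast, 3 of 8 synovial fibroblast and 3 of 11 proliferation markers were higher. So were 1 of 10 neutrophil and 1 of 6 T lymphocyte markers. Of adipocyte markers, 4 of 7 were lower, as were 2 of 10 cartilage and 2 of 9 B lymphocyte markers. Of 9 osteoblast and osteocyte markers, 1 was higher and 1 lower, and no epidermal or erythroid marker was called. Of all genes, 4.46% were higher and 3.36% lower. The mean of the macrophage list was 7.57 to 8.46 in the controls, 9.27 to 9.52 at day 0 to 3 and 7.77 to 8.80 in decline. Epidermal keratinocyte markers had a mean of 6.51 to 9.96 in the controls, 5.98 to 5.99 at day 0 to 3 and 10.20 to 11.10 in decline. Of these, 10 of 11 were higher in decline than in the first 2 phases, against 2.67% of all genes. Of 9 measured housekeeping genes, 1 was higher at day 0 to 3, with a median of 0.73. At week 1 to 2, 4 were higher, with a median of 0.75, against 5.41% of all genes and 34.8% of the 313 other bright genes. The part of these cell types in the ribosomal protein values was not tested.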

How the data were processed

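RNA of 15 tarsal joints was isolated (mirVana), amplified and biotin-labelled (NuGEN Pico) and hybridised to single-channel Affymetrix arrays, Mouse Gene 1.0 ST. The authors computed the deposited log2 values by RMA (affy, R 2.15), which corrects the background, quantile normalises and summarises probes, and no source used here says whether animal 57 was in that step. Of 35556 probe sets, 21789 name 1 gene in the platform annotation, 1621 several and 12146 none listed. For each of 19938 genes the probe set with the highest mean over 14 arrays was tested with limma 3.58.1 (R 4.3.3), with 5 group means and Benjamini-Hochberg adjustment. Errors beside a change are standard errors of that fit. The number of arrays limits the precision, so that p-values measure the spread between single joints. In simulated data of this size, 96 of 100 genes changed 4-fold and 46 of 100 changed 2-fold were called at day 0 to 3, with 14 false calls. Each gene had independent noise of the same SD in all groups, and the arrays did not differ in signal range. The real arrays do differ in it, so these shares need not hold for them. Named were the stalk genes, Rpsa, Fau, the paralogues, the largest called changes of each comparison and role list, and genes whose probe sets differed by at least 1. The members and lists were chosen with earlier results of these data known. The alternatives were other scalings, filters, probe set rules and models, and leaving out each array.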

Additional observations from a re-analysis of the deposited data

Results flagged for a closer look

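In all, 6 members differed between the declining phase and the first 2 weeks by a test of that difference (limma, adjusted over all genes). Their log2 differences, decline minus the pooled early phases, were -2.98 for Rplp0, -1.04 for Rpl19, -0.93 for Rpl24, 0.63 for Rpl36, 0.95 for Rps19 and 1.03 for Rpl3l. None of the 6 was called once the fit held a term for the letters in the array names (adjusted p from 0.56 to 0.97). All early arrays carry one set of letters and all declining arrays another, so letters and phase cannot be told apart.

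In probe sets that name several genes, and so were kept out of the comparisons, 6 further family genes had at least 1 probe set on which all 11 arthritic joints lay above all 3 controls, as did 1.15% of the 1386 other probe sets that name several genes. These were 3 of 3 probe sets for Rps16, 1 of 6 for Rps23, 2 of 2 for Rpl36al, 2 of 7 for Rpl3, 1 of 12 for Rpl35a and 9 of 17 for Rpl17. On the one of them with the highest mean, the day 0 to 3 mean minus the control mean was 1.97 for Rps16, 1.77 for Rps23, 1.63 for Rpl36al, 1.19 for Rpl3, 1.08 for Rpl35a and 0.77 for Rpl17, while the median over all 12 probe sets of Rpl35a was 0.01 and the lowest -0.18. The other gene named on each probe set may account for part of the signal, and this was not tested.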

How the results depend on the processing

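Leaving out 1 array at a time, the number of members called ranged from 1 to 24 at day 0 to 3, 9 to 27 at week 1 to 2, 0 to 18 at week 3 to 4 and 0 to 6 in decline against control. It was 0 to 0 for the comparisons with week 3 to 4 and 1 to 9 for decline against the first 2 phases. The median log2 change ranged from 0.32 to 0.82, 0.27 to 0.70, 0.39 to 0.83 and 0.12 to 0.62 in the 4 phases, from -0.01 to 0.06 for week 3 to 4 against week 1 to 2, from -0.35 to 0.00 for decline against week 3 to 4 and from -0.32 to 0.01 for decline against the first 2 phases. At week 3 to 4 the count was 0 without animal 29 or animal 60, 1 without animal 54 or control 2, 2 without animal 16, 18 or 43, 3 without animal 52 and 18 without animal 10. For decline against the first 2 phases it was 9 without animal 21, 8 without control 2, 1 without animal 18, 2 without animal 16 or animal 10 and 3 without animal 15, 43 or 52.

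With animal 57 added, 2, 1 and 0 members were called in the first 3 phases and 2 for decline against the first 2, and the median at day 0 to 3 was 0.046. An ANOVA of the 2 groups called 0, 0 and 0 in the first 3 phases and 2 for decline against the first 2. The second quantile normalisation gave medians of 0.24, 0.22 and 0.33 in the first 3 phases and 1 call in decline against control. With one median and one SD, the medians were 0.086, 0.025 and 0.068, 3 members were called at week 3 to 4 and 3 for decline against the first 2 phases, the median of decline against week 3 to 4 turned from -0.23 to 0.11, and Rpl23 at week 1 to 2 turned to -0.27. With the array SD as a covariate, 6, 8 and 0 members were called and the medians were 0.18, 0.14 and 0.16. Every probe set on its own gave 28, 34 and 12 genes in the first 3 phases and 10 for decline against the first 2. These counts have no share of all genes by the same rule beside them. Genes with a mean of at least 10 gave 13 at week 3 to 4. The letter code in the array names as a term gave 0 for decline against the first 2 phases, and a further minimum of 2-fold gave 3. Leaving out control 2 and animal 10 together, chosen after seeing the data, gave a median of 0.32 at day 0 to 3, 10 calls at week 3 to 4 and 6 in decline. The cause of these differences was not tested.

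Of 46 calls of a named member in a comparison, 5 held with animal 57 added and 1 under the ANOVA. No paired analysis was possible because the groups hold different animals. With 2 or 3 joints a group, changes under about 2-fold were often not detectable, and signal range and group cannot be told apart between the controls and the first 3 phases.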
